A study of Mus musculus with 20 samples.

Results

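The genes described here encode the proteasome, the protease complex that degrades ubiquitin-tagged proteins. They were taken as the protein-coding genes of the deposited table whose symbol starts with Psma to Psmg followed by a digit, which gave 48 of 19463 genes. Of these, 47 had a mean normalized count of at least 10 and entered the tests. The remaining member, Psma8, is a testis-specific alpha subunit with a mean of 5.2 normalized counts per mouse. The measurement was RNA-seq of whole brains from male C57BL/6J mice that were either Katnal2-KO or wild type (WT), at P21 (3 weeks) or P70 (10 weeks), and the 4 groups held 5 mice each. Katnal2-KO mice carried a frame-shifting deletion of exon 3 on both alleles, made from EUCOMM targeted ES cells by Flp mating and then Cre treatment of very early embryos. Every cell of the animal therefore carries the deletion, in neurons, glia and vessels alike. The targeted line had been crossed back to C57BL/6J, and WT mice carried no engineered allele at this locus. The deposited values are normalized counts, which do not carry the sequencing depth of a mouse.

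The proteasome has a barrel-shaped core (20S), built from outer alpha rings that gate the entrance and inner beta rings in which Psmb5, Psmb6 and Psmb7 carry the catalytic sites. A regulatory cap (19S) recognizes ubiquitin chains, removes them and unfolds the substrate, with an ATPase ring (Psmc genes) seated on the core and a base and lid of Psmd subunits. In cells exposed to interferon, Psmb8, Psmb9 and Psmb10 replace the constitutive catalytic subunits, and the alternative caps Psme1 and Psme2 can replace the 19S cap. In the brain the system turns over synaptic and misfolded proteins. By role, the 48 genes were 7 alpha, 4 non-catalytic beta, 3 constitutive catalytic, 3 interferon-inducible catalytic and 1 testis-specific subunit, 6 ATPases, 3 base and 8 lid subunits, 4 alternative caps, 7 assembly chaperones and the regulator Psmf1 (PI31). The last, Psmc3ip, is a recombination protein that enters by its symbol and is not a subunit. The members lie on 16 chromosomes.

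Katnal2 RNA, the product of the targeted gene, was still measured in all KO mice. At P21 it ranged from 78.1 to 96.0 normalized counts in KO and from 99.3 to 115 in WT mice, without overlap (two-sided exact permutation p = 0.00794, which is the minimum for groups of 5, unadjusted). At P70 the ranges were 95.1 to 125 in KO and 101 to 141 in WT mice and overlapped (two-sided exact permutation p = 0.0794). With adjustment over all genes, the log2 fold changes of -0.27 at P21 and -0.21 at P70 did not pass the test (adjusted p = 0.9999 each from limma). Neuron markers summed to between 125080 and 144535 normalized counts over the 20 mice, and all 5 of them passed the mean of 10, as the brain label requires. The oligodendrocyte markers Mbp, Mog, Mag and Mobp together had 217308 to 340623 normalized counts in P21 mice and 90139 to 133639 in P70 mice.

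In each group 1 mouse stood above its group mates in proteasome genes. P21 KO replicate 3 was the highest of its 5 mice for 38 of 47 members (80.9%), against 30.1% of all 17617 genes. P21 WT replicate 3 was the highest for 38 members (80.9%, against 28.3% of all genes). P70 KO replicate 5 was the highest for 32 members (68.1%, against 38.9%), and P70 WT replicate 5 for 29 (61.7%, against 36.0%). The mean deviation of the members from their group means in these mice was 0.13, 0.14, 0.21 and 0.15 on the log2 scale, in the same order. These libraries also differed by transcript length. In the same 4 mice, genes in the shortest tercile (spliced length up to 2155 bases) had median deviations of 0.10, 0.11, 0.21 and 0.20 on the log2 scale, and genes in the longest tercile (over 3708 bases) had -0.07, -0.09, -0.21 and -0.17. The part of transcript length in the members' deviations was not tested. The oligodendrocyte marker sum was the highest of its group in each of these 4 mice (340623, 254171, 133639 and 127637 normalized counts), and that of ependymal and choroid plexus markers was in all but P21 WT replicate 3 (26281, 26596 and 26352). The latter sum was mostly Ttr, with a mean of 17592 normalized counts over all mice, against 89.9 to 588 for Foxj1, Rsph1, Kl and Aqp1. Blood markers were highest in all but P70 WT replicate 5 (30949, 61276 and 13110), and endothelial markers in both P70 mice (4556 and 4482). Endothelial markers were lowest in P21 KO replicate 3 (3576). Astrocyte markers were highest in that mouse (38782) and lowest of their group in P21 WT replicate 3 (31887) and both P70 mice (26417 and 29175). These ranks are of sums. By the mean log2 deviation of the markers, blood was highest in P21 KO replicate 4 (0.55, against 0.53 in replicate 3). Astrocyte markers were then lowest in P21 WT replicate 4 (-0.06, against -0.04 in replicate 3). The part of these cell types was not tested either.

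**Figure D1:**
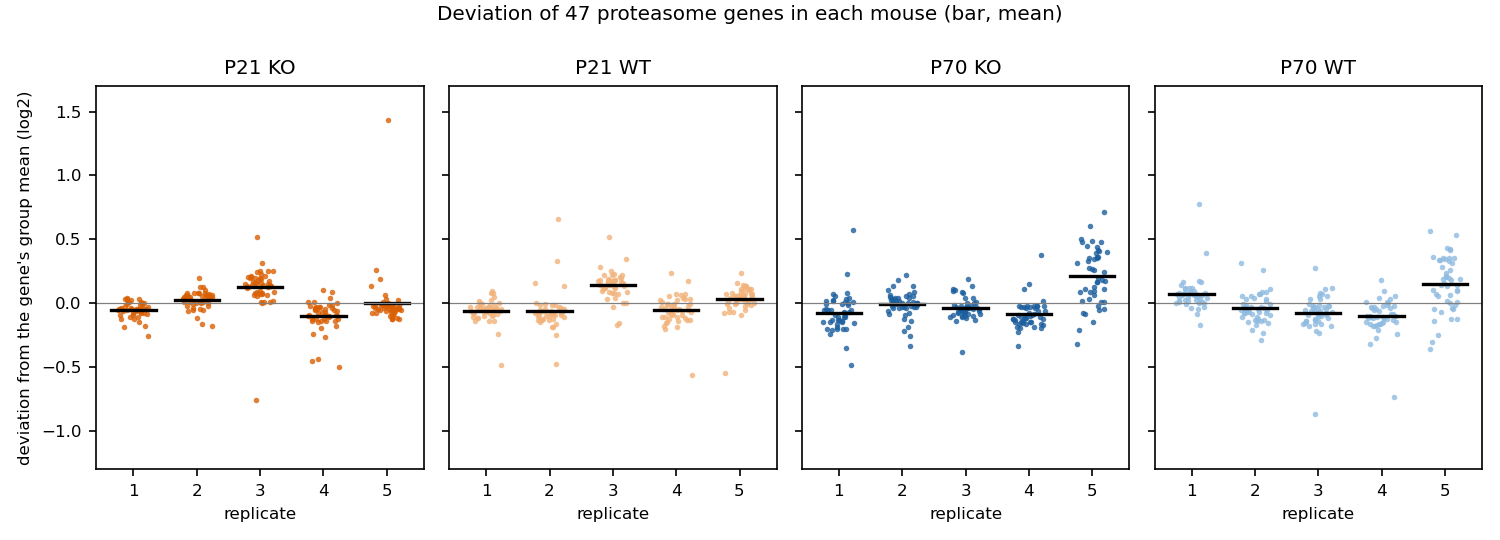
Deviation of each of 47 proteasome genes from its group mean (log2 of normalized count + 1, vertical axis) in every mouse (replicate number, horizontal axis), with 1 point per gene, the mean as a bar and 1 panel per group. Replicate 3 of both P21 groups and replicate 5 of both P70 groups lie above 0 for most genes, with mean deviations of 0.13 to 0.21.

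The whole set took a narrow share of the transcriptome. The summed member values were 0.266% to 0.336% of all values over the 20 mice, with group medians of 0.276% in P21 KO, 0.276% in P21 WT, 0.282% in P70 KO and 0.274% in P70 WT mice. The highest of these was P70 KO replicate 5. The median coefficient of variation (SD over mean, 5 mice) of the members was 7.24%, 8.47%, 12.1% and 10.1% in P21 KO, P21 WT, P70 KO and P70 WT mice, and that of all genes was 9.56%, 9.88%, 16.7% and 15.1%. Single mice moved these medians. Without the mouse whose removal lowered it most, the members' median was 5.03% in P21 KO and 5.23% in P21 WT (replicate 3 left out), and 5.43% in P70 KO and 6.85% in P70 WT mice (replicate 5 left out). The highest values with another mouse left out were 8.03%, 8.94%, 13.99% and 10.7%. The all-gene medians without the same replicate 3 or 5 mice were 7.77%, 8.34%, 8.56% and 9.35%, in the order P21 KO, P21 WT, P70 KO and P70 WT.

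Levels were compared between genes per kilobase of spliced transcript, as means over all 20 mice. The constitutive catalytic subunits had nearly the same level, with 2278 normalized counts per kb for Psmb7 (trypsin-like site), 2232 for Psmb6 (caspase-like site) and 2194 for Psmb5 (chymotrypsin-like site). Their ranges over mice, 1887 to 2831, 1828 to 3212 and 1860 to 2988, overlapped almost entirely. The alpha subunits ran from 589 for Psma3 to 2072 for Psma7, and the non-catalytic beta subunits from 1378 for Psmb2 to 2029 for Psmb4. In the 19S cap the ATPases ran from 815 for Psmc6 to 2734 for Psmc5, which was the highest of all members, the base subunits from 1029 for Psmd1 (Rpn2) to 1906 for Psmd2 (Rpn1), and the lid subunits from 589 for Psmd11 (Rpn6) to 1631 for Psmd3 (Rpn3).

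Most genes outside the constitutive particle were lower, with the exception of Psme3. The alternative caps ran from 278 normalized counts per kb for Psme4 (PA200) to 901 for Psme3 (PA28 gamma), which was above Psma3, Psmd11 and Psmc6, the assembly chaperones from 194 for Psmg4 to 320 for Psmg3, and Psmf1 had 240. The inducible Psmb10 had 419, whereas Psmb8 had 28.2 and Psmb9 had 16.4. Psmc3ip had 35.9 and Psma8 had 3.07. The choice of length mattered. Per kb of coding length Psme3 had 3151, above the highest 19S subunit, Psmc5, at 2953, and Psmf1 had 1123. The 14 constitutive core genes, which encode subunits present in equal copies, spanned 3.87-fold per kb of spliced length, from Psma3 to Psmb7, 2.15-fold per kb of coding length, from 1739 for Psma5 to 3744 for Psmb1, and 5.09-fold over the union of all annotated exons. The near equality of the catalytic subunits did not hold over the union of exons either, where Psmb5 had 2194, Psmb6 had 951 and Psmb7 had 772. Processed pseudogenes of Psmb5, Psmb6 and Psmb7 are annotated and can share reads with their parent genes, which makes those levels uncertain.

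**Figure D2:**
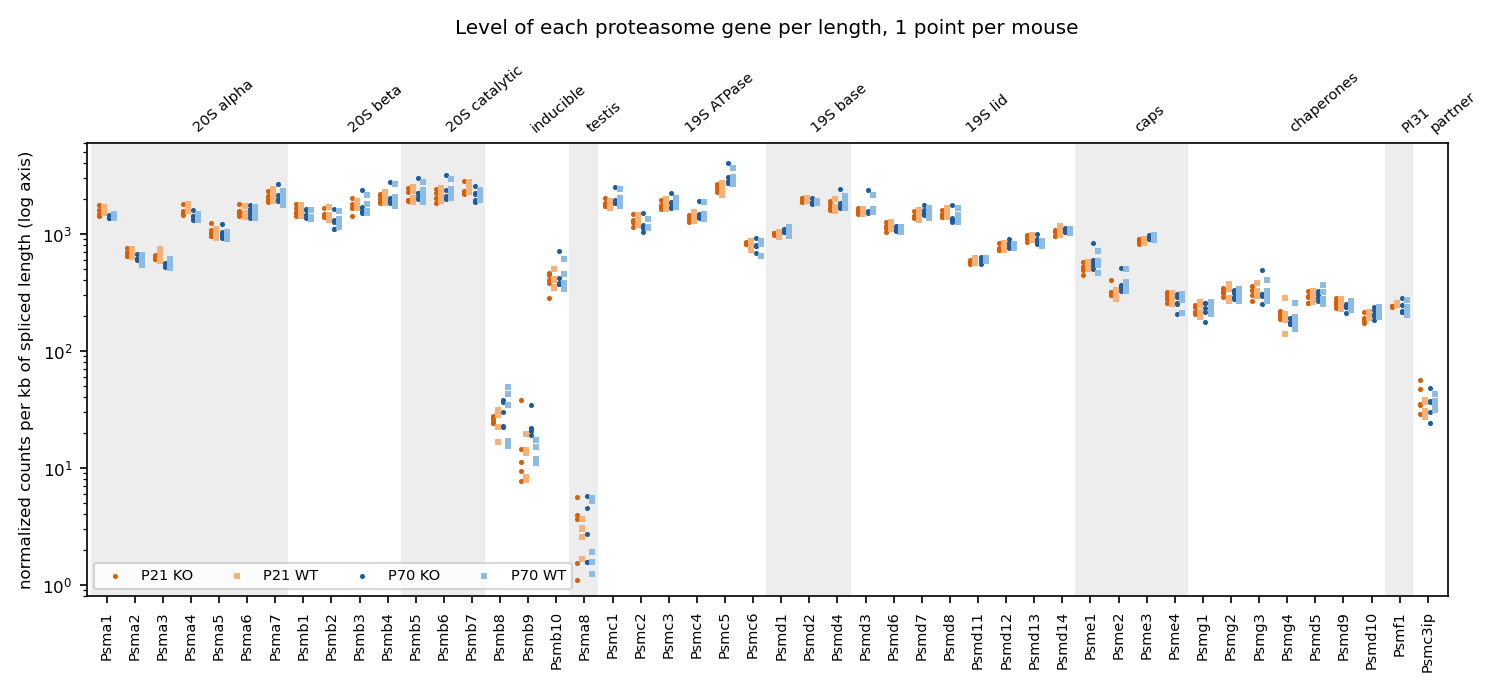
Normalized counts per kb of spliced length (vertical log axis) for the 48 genes (horizontal axis, grouped by role), with 1 point per mouse and a colour per group. The catalytic subunits Psmb5, Psmb6 and Psmb7 sit together close to each other, between 2194 and 2278, and Psmb8 and Psmb9 lie near 28.2 and 16.4.

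Each inducible subunit was set against the constitutive subunit whose place it takes, both per kb of spliced length. Psmb8 was 1.29% ± 0.35 of Psmb5 (mean and SD over 20 mice, range 0.716% to 2.08%). Psmb9 was 0.751% ± 0.413 of Psmb6 (range 0.321% to 1.86%). Psmb10 was 18.4% ± 3.3 of Psmb7 (range 12.9% to 27.6%). The order of Psmb10 over Psmb8 over Psmb9 held in the means per kb of coding length, at 21.1%, 2.23% and 1.38%. In whole brain tissue a low value can come from few cells with much RNA or from many cells with little, and these cannot be told apart. For the same reason a change in level below cannot be told apart from a change in how many cells carry the RNA.

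The first question was what differed between P21 and P70, asked separately in WT and in KO mice, which share no mouse. Age cannot be told apart from any batch that went with age. In WT mice, 1 of 47 members was lower at P70 and 0 were higher, at an adjusted p under 0.05 (limma with Benjamini-Hochberg adjustment over 17630 genes). Among all genes 4.7% were lower and 4.62% higher, 9.32% together. In KO mice 1 member was lower and 0 were higher, where 4.53% and 3.78% of 17641 genes were lower and higher, 8.32% together. Of the members 22 were above 0 in WT mice (46.8%, against 50.2% of all genes) and 26 in KO mice (55.3%, against 48%). Without adjustment 8 members (17%) had a p under 0.05 in WT mice, against 24.5% of all genes, and 2 members (4.26%) in KO mice, against 22.7%. With single mice left out these counts ran from 6 to 13 in WT and from 2 to 11 in KO mice, and the highest came without P70 replicate 5, where 31.4% of all genes in WT and 34.1% in KO mice had such a p. The median size of the log2 fold change was 0.09 for members and 0.15 for all genes in WT mice, and 0.11 and 0.15 in KO mice. The direction was the same in WT and KO mice for 41 of 47 members (87.2%), of which 20 were lower and 21 higher at P70, against 80% of 17437 genes.

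Both members that passed the test encode alpha subunits. Psma4 (chr9:54950790-54958030, GRCm38), the alpha3 subunit, had 1920, 1817, 2100, 1943 and 1968 normalized counts in P21 WT mice of replicates 1 to 5 and 1728, 1701, 1647, 1542 and 1659 in P70 WT mice. Every P70 WT mouse was below every P21 WT mouse. The means were 1950 ± 102 at P21 and 1656 ± 71 at P70 (SD, n = 5 each), and the log2 fold change was -0.24 (SE 0.06, adjusted p = 0.0318 from limma). In KO mice Psma4 had 1769, 1826, 2115, 1747 and 1706 normalized counts at P21 and 1645, 1660, 1623, 1524 and 1854 at P70. Those groups overlapped, because P70 KO replicate 5 was above 4 of the P21 mice, and the log2 fold change of -0.14 (SE 0.08) had an adjusted p of 0.310 from limma. That fold change ran from -0.18 to -0.09 with single KO mice left out. Psma4 shares 114 exon bases with AY074887 on the opposite strand, and the library kit does not mark strand.

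Psma3 (chr12:70974621-70996347, GRCm38), the alpha7 subunit, had 1736, 1738, 1880, 1790 and 1776 normalized counts in P21 KO mice of replicates 1 to 5 and 1517, 1553, 1493, 1511 and 1608 in P70 KO mice. The groups did not overlap. The means were 1784 ± 59 at P21 and 1536 ± 45 at P70 (SD, n = 5 each), and the log2 fold change was -0.22 (SE 0.06, adjusted p = 0.0335 from limma). In WT mice it had 1794, 1722, 2098, 1664 and 1996 normalized counts at P21 and 1722, 1446, 1463, 1495 and 1546 at P70. The log2 fold change there was -0.27 (SE 0.08, adjusted p = 0.0510 from limma), and P21 WT replicate 4 lay below P70 WT replicate 1, so that these groups overlapped. Psma3 and Psma4 thus had the same direction in both genotypes and passed the test in 1 each, and the difference between genotypes was not past the threshold for either (interaction coefficients 0.06 and 0.09, adjusted p = 1 from limma).

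Most fits with 1 mouse fewer kept the size of these differences and lost the call. With each of the 10 WT mice left out in turn, Psma4 kept an adjusted p under 0.05 without P21 WT replicate 2, P70 WT replicate 1 or P70 WT replicate 5 (0.0396, 0.0470 and 0.0122), and had 0.0573 to 0.0792 in the other 7 fits, with log2 fold changes of -0.26 to -0.21 over all 10. Psma3 in KO mice kept it without P70 KO replicate 5 (0.00245) and had 0.0592 to 0.0851 in the other 9 fits, with log2 fold changes of -0.23 to -0.20. A block for replicate number also ended both calls (Psma4 in WT mice, adjusted p = 0.0916, and Psma3 in KO mice, adjusted p = 0.122, from limma). Leaving out P70 WT replicate 5 gave 6 lower members in WT mice, namely Psma1, Psma3, Psma4, Psmb7, Psmc2 and Psmd13 (12.8% of members, against 17% of all genes called). Leaving out P70 KO replicate 5 gave 3 lower members (Psma3, Psmb2 and Psmd8) and 1 higher (Psmc5) in KO mice (8.51%, against 21.3%). With the replicate 5 mice of both ages left out, the calls were Psma4 and Psmd13 lower and Psmc5 higher in WT mice (6.38%, against 15%), and Psma3, Psma4 and Psmb2 lower and Psmc5 and Psmb9 higher in KO mice (10.6%, against 19.4%).

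Most alpha subunits had values below 0, and 1 of 7 passed the test in each genotype, against 9.32% of all genes in WT and 8.32% in KO mice. All 7 alpha subunits had a negative log2 fold change in WT mice, from -0.27 to -0.04 with a median of -0.18, and 6 of 7 did in KO mice, from -0.22 to 0.05 with a median of -0.14, where the medians of all genes were 0.0015 and -0.010 and 50.2% and 48% of all genes were above 0. The members past the threshold were Psma4 in WT and Psma3 in KO mice. Further members are named here after their values were seen, for an unadjusted p under 0.05 in WT mice. Psma1 (alpha6) had a log2 fold change of -0.18 in WT (adjusted p = 0.0712, groups without overlap) and -0.14 in KO mice (adjusted p = 0.285), and Psma2 (alpha2) had -0.22 (adjusted p = 0.0880) and -0.14 (adjusted p = 0.230), all from limma. In KO mice Psma1 ran from -0.16 to -0.08 and Psma2 from -0.18 to -0.10 with single mice left out. The 4 non-catalytic beta subunits were also all below 0 in WT mice, with a median of -0.07, and 2 of 4 were in KO mice, with a median of -0.03. None of the 4 passed the test. The alpha count stayed at 7 of 7 in WT mice and at 6 or 7 of 7 in KO mice under every scaling, filter and model tried, and leaving out single mice gave 6 to 7 in WT and 4 to 7 in KO mice.

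The catalytic subunits did not share a direction. Psmb7 had a log2 fold change of -0.19 in WT mice (2823 ± 250 at P21, 2467 ± 208 at P70, SD, n = 5 each, adjusted p = 0.142 from limma) and -0.14 in KO mice (adjusted p = 0.438), where single mice left out gave -0.21 to -0.08. Psmb5 had 0.04 and 0.11, and Psmb6 had 0.12 and 0.14, none past the threshold. The values of Psmb5 and Psmb6 at P70 were highest in replicate 5 of both genotypes, at 2686 and 2511 normalized counts for Psmb5 and 2563 and 2360 for Psmb6. Without the replicate 5 mice the sign of Psmb5 turned, to -0.01 in both genotypes, and Psmb6 went to 0.06 in WT and 0.0072 in KO mice.

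Genes of the 19S cap had both directions. Of 17 ATPase, base and lid subunits, 11 had a positive log2 fold change in WT mice and 11 in KO mice, with medians of 0.07 and 0.08, where 50.2% and 48% of all genes were positive. Without the replicate 5 mice of both ages the counts were 12 and 8. Psmc5 (Rpt6), an ATPase, had 3055, 2936, 3582, 2832 and 3461 normalized counts in P21 WT mice and 4010, 3649, 3493, 3598 and 4849 in P70 WT mice. In KO mice it had 3182, 3348, 3519, 3003 and 3179 at P21 and 3603, 4013, 3749, 3584 and 5300 at P70, without overlap. Its log2 fold change was 0.30 in both genotypes. The adjusted p was 0.0722 in WT and 0.0912 in KO mice from limma, so that it missed the threshold. With array weights, which also keep all mice, it passed in WT (0.26, adjusted p = 0.0143) and KO mice (0.22, adjusted p = 0.0074, both from limma). In those weighted fits 19.9% of all genes in WT and 23.6% in KO mice passed. Psmd13 (Rpn9), a lid subunit, was at -0.15 in WT mice (adjusted p = 0.137) without overlap of the groups. It was at -0.06 in KO mice, where single mice left out gave -0.10 to -0.04. Psmd13 shares 342 exon bases with Sirt3 on the opposite strand. Psmd1, the base scaffold, was at 0.08 in KO mice without overlap (3025 to 3173 normalized counts at P21, 3201 to 3424 at P70, adjusted p = 0.424 from limma). Psmd1 shares 301 exon bases with Gm21972 on the same strand and 252 with Htr2b on the opposite strand. In all, 3 members did not overlap between ages in WT mice (6.38%, against 10.8% of all genes) and 3 in KO mice (6.38%, against 10.9%).

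Among the remaining roles, Psme2 (PA28 beta) had the largest positive log2 fold change of the members in WT mice, at 0.31 (294 ± 25 at P21 and 369 ± 68 at P70, SD, n = 5 each, adjusted p = 0.117 from limma), and had 0.20 in KO mice (adjusted p = 0.398 from limma). Without P70 WT replicate 5 the WT value was 0.21, and without P70 KO replicate 5 the KO value was 0.09. The 7 assembly chaperones had medians of -0.02 in WT and 0.01 in KO mice, with 0 calls. The 3 inducible catalytic subunits were above 0 in both genotypes, with 0.21 and 0.18 for Psmb8, 0.12 and 0.73 for Psmb9 and 0.07 and 0.16 for Psmb10 in WT and KO mice. Psmb8 ran from 0.01 to 0.42 in WT and from 0.09 to 0.28 in KO mice with single mice left out. The value of Psmb9 in KO mice had an adjusted p of 0.262, and without P21 KO replicate 5, the highest P21 mouse, the log2 fold change was 1.09 (adjusted p = 0.0278, both from limma). Without the replicate 5 mice of both ages, Psmb8 in WT mice and Psmb10 in both genotypes turned to -0.07, -0.05 and -0.03. Medians of marker sums for oligodendrocytes, their precursors, blood and dividing cells were also lower at P70 in both genotypes (100157 against 251779, 4542 against 8755, 10585 against 21342 and 128 against 341 normalized counts in KO mice). The median of neuron markers was higher (137209 against 130290 in KO and 139532 against 131837 in WT mice). That of ependymal and choroid plexus markers, mostly Ttr, was also higher, at 25072 against 17611 in KO and 15727 against 15260 in WT mice. The part of these cell types in the age differences was not tested.

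**Figure D3:**
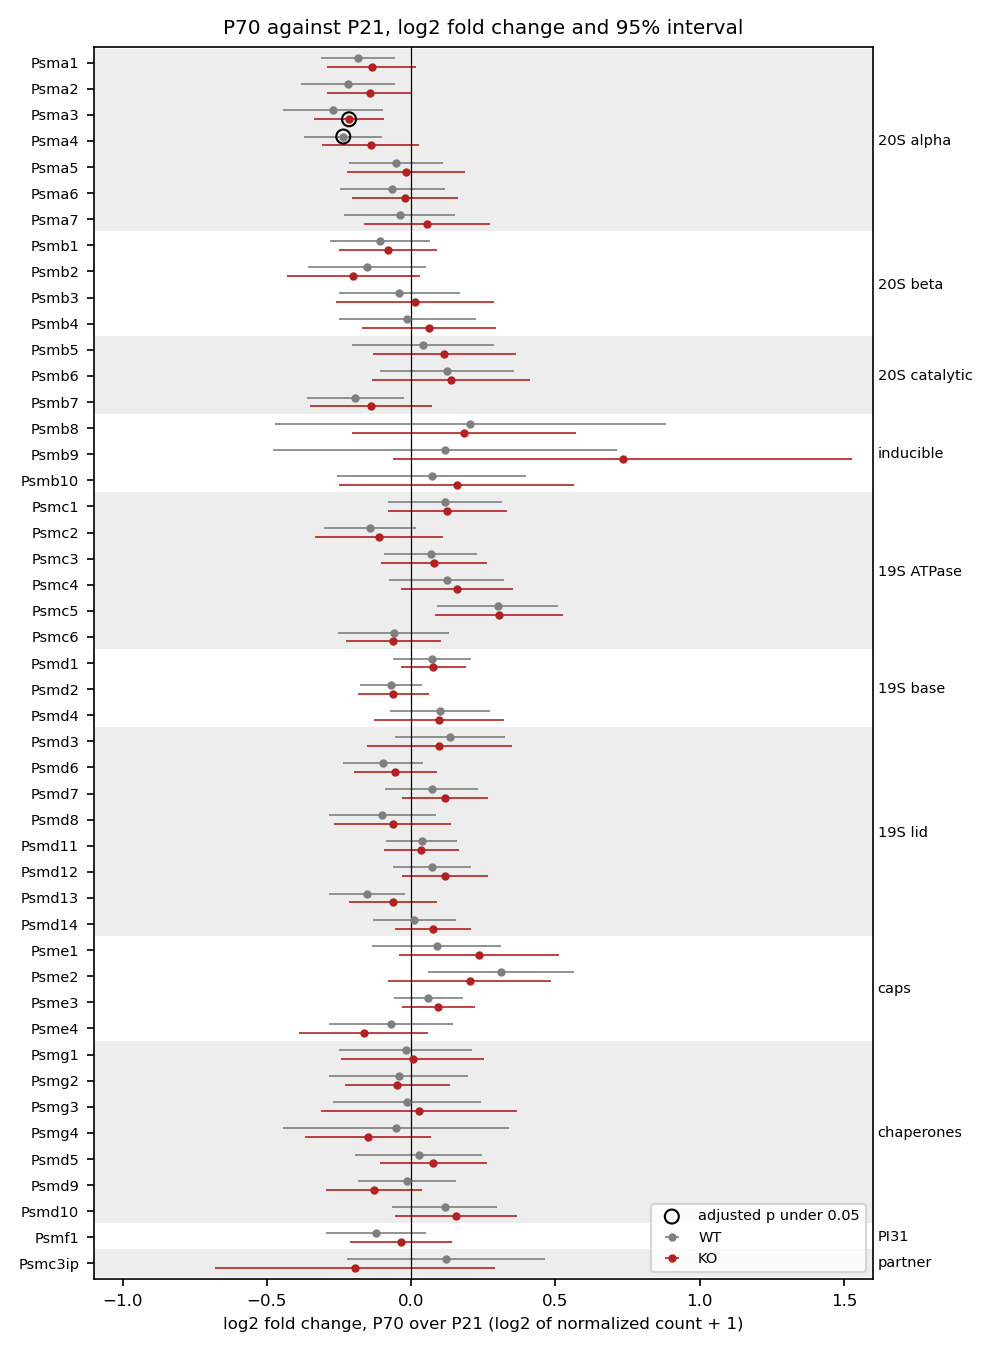
Log2 fold change of each of 47 proteasome genes at P70 against P21 (horizontal axis, with 95% intervals from limma), in WT and KO mice, grouped by role. The circled values are Psma4 in WT (-0.24) and Psma3 in KO mice (-0.22), and the alpha subunits lie to the left of 0 except Psma7 in KO mice.

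The promoters of the 2 genes that passed the age test, and that of the catalytic subunit Psmb5 for comparison, were read from RefSeq. The window covers the last 250 bases before the RefSeq start, and 40 of 48 members had an entry. The best-known regulator of proteasome genes, Nfe2l1 (NRF1), binds antioxidant-type elements, and a CCAAT box is common in these genes. The letters searched on both strands were TGACNNNGC (antioxidant response core), CCAAT, the nuclear respiratory factor 1 site as a pair of GCGC words set 2 bases apart, CCGGAAG (ETS core), the interferon regulatory factor element as a pair of GAAA words set 2 bases apart and TTCNNNGAA (gamma-activated site). Capitals mark the matches in the 3 promoters printed here, 5′ to 3′ on the strand of the gene.
Psma3 promoter (GRCm38.p6, chr12:70974373-70974622, plus strand): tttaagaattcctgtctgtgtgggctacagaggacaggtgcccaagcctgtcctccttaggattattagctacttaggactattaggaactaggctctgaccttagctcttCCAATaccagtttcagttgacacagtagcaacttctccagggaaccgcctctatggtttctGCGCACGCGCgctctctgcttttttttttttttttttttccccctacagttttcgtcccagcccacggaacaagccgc
Psma4 promoter (GRCm38.p6, chr9:54950609-54950858, plus strand): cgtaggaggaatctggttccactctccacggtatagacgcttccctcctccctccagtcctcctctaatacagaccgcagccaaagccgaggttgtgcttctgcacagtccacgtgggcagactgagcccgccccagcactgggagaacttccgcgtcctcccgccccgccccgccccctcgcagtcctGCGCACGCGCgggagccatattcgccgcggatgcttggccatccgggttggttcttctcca
Psmb5 promoter (GRCm38.p6, chr14:54617996-54618245, minus strand): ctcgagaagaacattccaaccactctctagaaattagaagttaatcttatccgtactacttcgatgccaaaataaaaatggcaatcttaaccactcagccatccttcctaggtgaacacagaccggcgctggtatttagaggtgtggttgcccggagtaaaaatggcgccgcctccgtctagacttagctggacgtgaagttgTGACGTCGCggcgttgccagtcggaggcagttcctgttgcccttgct

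The Psma3 promoter held a CCAAT box whose first base is 139 bases before the start and a nuclear respiratory factor 1 match at 78 bases. Psma4 held a nuclear respiratory factor 1 match at 61 bases and Psmb5 a TGACNNNGC match at 47 bases. The RefSeq start of Psma4 lies 69 bases inside the GENCODE gene, so that its match begins at base 9 of the GENCODE gene and not before it. The start of Psmb5 lies 27 bases inside, and its match begins 20 bases before the GENCODE start. In all, the bases just after the RefSeq start were part of the GENCODE transcript used here for 29 of the 40 entries. Over the 40 promoters, the nuclear respiratory factor 1 letters were found in 6 (15%), in Psma2, Psma3, Psma4, Psmc4, Psmc5 and Psmd14. The share was 9.62% over 12480 promoters of genes with a mean of at least 10, members included. Those promoters were the first RefSeq entry of each gene, while each member's was the entry nearest to its GENCODE start. The windows were thus chosen differently, which holds for every share set side by side below. TGACNNNGC was found in 5 (12.5%, against 11.8%) and CCAAT in 14 (35%, against 36.0%), so that these shares were near those of all promoters. CCGGAAG was found in 12 (30%, against 12.2%), in Psmc1, Psmc2, Psmc3ip, Psmc6, Psmd11, Psmd12, Psmd2, Psmd4, Psmd6, Psme3, Psme4 and Psmg1. The interferon regulatory factor element was in 3 (7.5%, against 2.47%), in Psmb3, Psmd4 and Psmd9, none of them an inducible subunit. TTCNNNGAA was in 2 (5%, against 5.87%), the inducible Psmb8 and the chaperone Psmg1. These are matches of letters in a window and say nothing of binding.

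The second question was what differed between KO and WT mice at each age. At P21, 0 of 47 members and 0% of 17610 genes passed an adjusted p of 0.05 in limma, and at P70, 0 of 47 members and 0% of 17613 genes did. At an unadjusted p under 0.05 there were 0 members at P21, against 2.44% of all genes, and 1 at P70 (2.13%, against 1.13%). The median size of the members' log2 fold change was 0.03 at P21 and 0.03 at P70, where that of all genes was 0.05 and 0.06. The 95% intervals of the members had a median half-width of 0.15 at P21 and 0.23 at P70 on the log2 scale, without adjustment. At P70, 33 of 47 members were above 0 (70.2%, against 47.8% of all genes), and without P70 KO replicate 5 this became 16. At P21, 19 members were above 0 (40.4%, against 52.5%), and leaving out single mice moved this from 10, without P21 KO replicate 3, to 36, without P21 WT replicate 3.

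The members with the smallest p at P21 were Psmc3ip (log2 fold change 0.28), Psma4 (-0.09), the regulator Psmf1 (-0.05) and the chaperone Psmd10 (-0.09), each with an adjusted p of 1 from limma. With single mice left out, Psmc3ip ran from 0.15 to 0.39, Psma4 from -0.14 to -0.06 and Psmd10 from -0.14 to -0.06. Psmf1, which binds the core and modulates its assembly and activity, had 908, 924, 922, 922 and 918 normalized counts in P21 KO mice and 941, 943, 936, 972 and 976 in P21 WT mice. It was the only member without overlap between genotypes at that age (1 of 47, 2.13%, against 0.46% of all genes). The means were 919 ± 6.4 and 954 ± 19 (SD, n = 5 each). At P70 the difference had the opposite sign, with a log2 fold change of 0.03, from 901 ± 108 in KO and 880 ± 100.5 in WT mice (SD, n = 5 each). The SD of 6.4 in P21 KO mice was the smallest of the 4 groups for this gene.

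At P70 the members with the smallest p were Psmb9 (0.78), the lid subunit Psmd13 (0.10), the chaperone Psmd9 (-0.09) and the alpha subunit Psma5 (0.09), with an adjusted p of 1 each from limma. With single mice left out, Psmd13 ran from 0.06 to 0.13, Psmd9 from -0.12 to -0.05 and Psma5 from 0.03 to 0.13. Psmb9 (chr17:34181987-34187764, GRCm38), the inducible subunit that replaces Psmb6, had 46.8, 25.8, 28.9, 29.9 and 28.0 normalized counts in P70 KO mice and 23.6, 14.9, 16.1, 14.8 and 20.6 in P70 WT mice. Every KO mouse was above every WT mouse, and Psmb9 was the only such member (1 of 47, 2.13%, against 0.193% of all genes without overlap). The means were 31.9 ± 8.5 and 18 ± 3.9 (SD, n = 5 each), and the log2 fold change was 0.78 (SE 0.22, 95% interval 0.29 to 1.27, adjusted p = 1 from limma, unadjusted p = 0.00459). Leaving out single mice gave log2 fold changes of 0.64 to 0.88, and no fit gave an adjusted p under 0.05.

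At P21 the same gene had 15.2, 19.5, 10.4, 12.7 and 51.2 normalized counts in KO and 11.4, 26.2, 18.1, 10.7 and 19.3 in WT mice. The groups overlapped, P21 KO replicate 5 was above all WT mice, and without that mouse the log2 fold change went from 0.17 to -0.19. Psmb9 shares 212 exon bases with Tap1, the peptide transporter gene on the opposite strand, and at P70 Tap1 had 66.9 ± 19 normalized counts in KO and 71.4 ± 22 in WT mice (SD, n = 5 each). The other inducible subunits overlapped between genotypes at P70, with 48.8 ± 12 in KO and 51.8 ± 25 in WT mice for Psmb8 and 591 ± 195 and 561 ± 141 for Psmb10 (normalized counts, SD, n = 5 each). Microglia markers summed to 4158 to 5352 normalized counts in P70 KO and 3963 to 4906 in P70 WT mice, and endothelial markers to 3852 to 4556 and 3147 to 4482. Ependymal and choroid plexus markers, mostly Ttr by count, summed to 14892 to 26596 in P70 KO mice (median 25072). In P70 WT mice they summed to 12085 to 26352 (median 15727). Their part in the Psmb9 values was not tested.

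**Figure D4:**
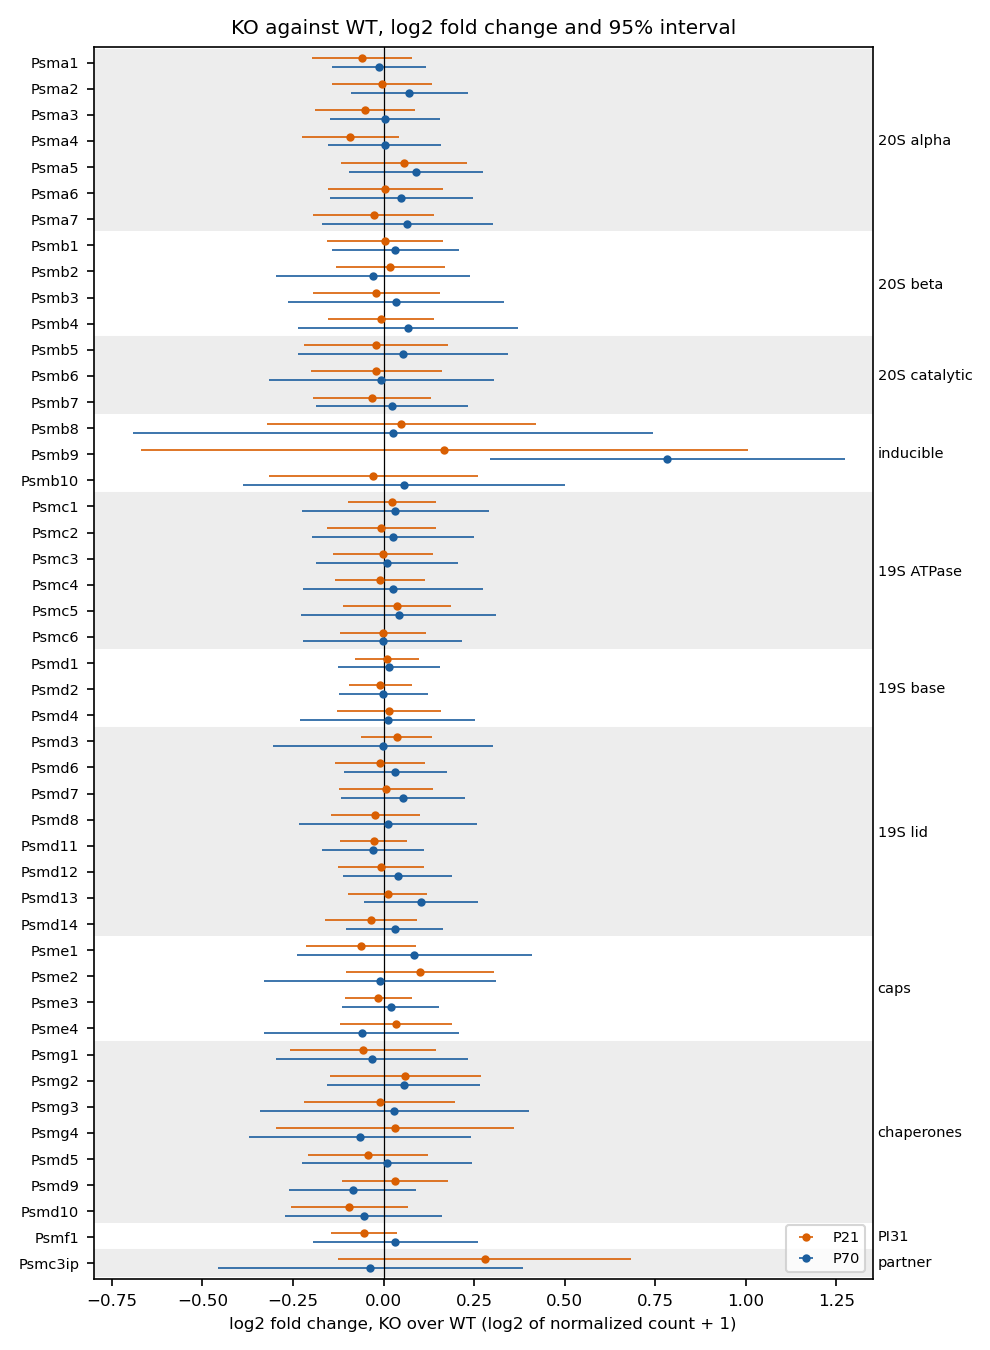
Log2 fold change of each of 47 proteasome genes in KO against WT mice (horizontal axis, with 95% intervals from limma) at P21 and P70, grouped by role. Most values lie close to 0 with intervals that cover it, and the interval of Psmb9 at P70 runs from 0.29 to 1.27.

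The last comparison asked whether the difference between ages differed between genotypes, in all 20 mice. At an adjusted p under 0.05 it gave 0 of 47 members and 0% of 17637 genes, and at an unadjusted p under 0.05 it gave 0 members and 1.68% of all genes. The members with the smallest p were Psmb9 (coefficient 0.62 on the log2 scale, SE 0.47), Psmc3ip (-0.32, SE 0.27) and Psmd9 (-0.12, SE 0.10), with an adjusted p of 1 each from limma. Psmb9 ran from 0.43 to 0.97, Psmc3ip from -0.44 to -0.19 and Psmd9 from -0.15 to -0.08 with single mice left out. All 7 alpha subunits had a positive coefficient, from 0.03 to 0.09, meaning that the P70 minus P21 difference was more positive in KO than in WT mice, and each 95% interval covered 0. Without P70 KO replicate 5, 2 of the 7 were negative, and without P21 WT replicate 3, 1 was. Of 47 members 35 were above 0 (74.5%, against 46.9% of all genes), and without P70 KO replicate 5 this became 18.

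**Figure D5:**
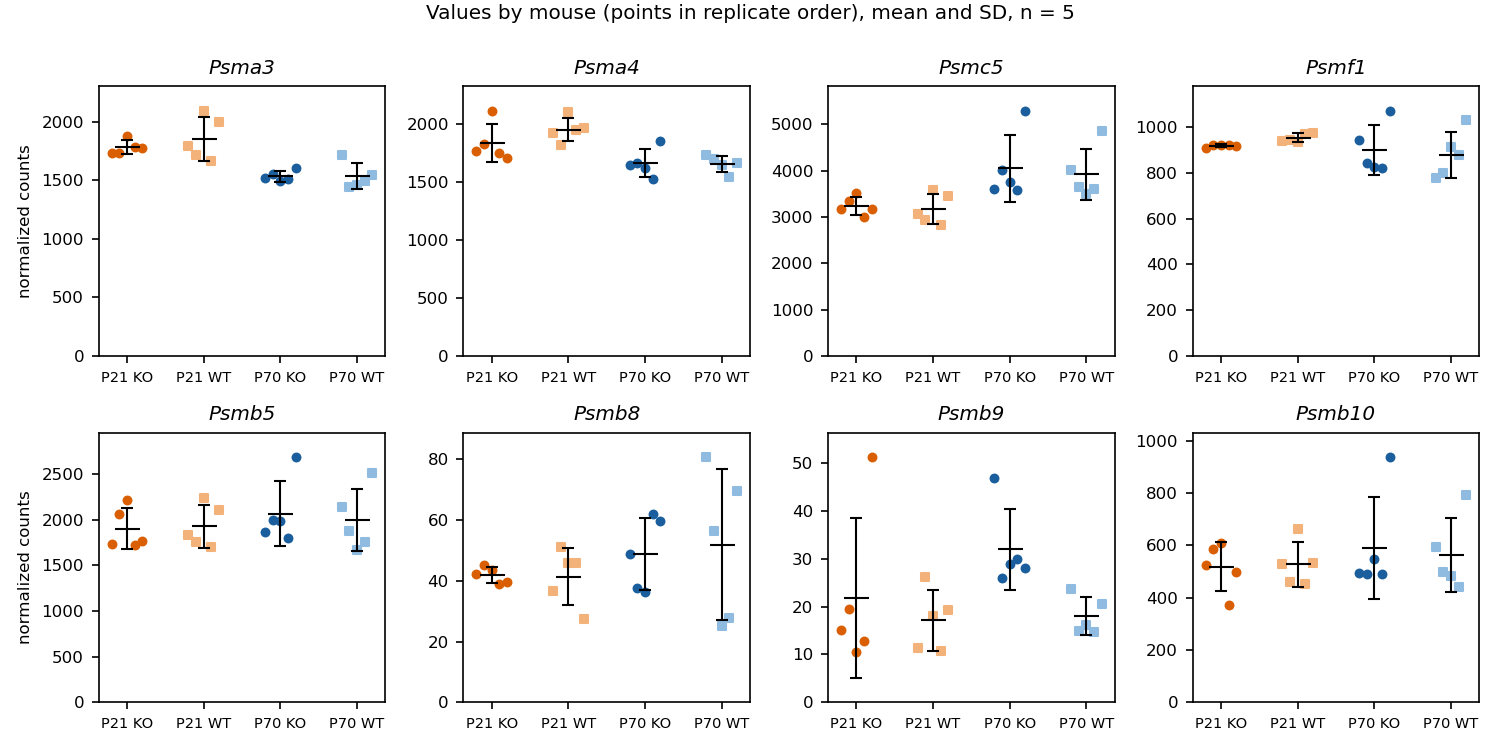
Normalized counts (vertical axis from 0) of 8 proteasome genes in each mouse, by group (horizontal axis), with points in replicate order and the mean and SD (n = 5). Psma4 in WT and Psma3 in KO mice passed the age test, the P70 KO and P70 WT points of Psmb9 do not overlap although the difference did not pass (adjusted p = 1 from limma), and P70 KO replicate 5 is the highest of its group for all but Psmb8 and Psmb9.

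Genes that work with the proteasome were examined as lists, and each list had 0 calls in both KO against WT comparisons and in the interaction (limma). Whether the age calls of listed genes hold with single mice left out or under other settings was not examined. At an unadjusted p under 0.05 the NRF1 list had 1 of 10 genes at P21 and 1 in the interaction, the shuttle list had 2 of 14 at P21, and the others had 0, where 2.44% of all genes had such a p at P21 and 1.68% in the interaction. Of 10 tested proteasome genes outside the symbol rule, 3 were lower and 0 higher at P70 in WT mice and 2 were lower in KO mice, where 4.7% and 4.53% of all genes were lower. Sem1 (Rpn15), the smallest lid subunit, fell from 989 ± 106 to 709 ± 39 normalized counts in WT mice (SD, n = 5 each, log2 fold change -0.47, adjusted p = 0.00319) and by 0.34 on the log2 scale in KO mice (adjusted p = 0.0216, both from limma). Zfand5, which activates the 26S particle, fell by 0.31 on the log2 scale in WT and by 0.32 in KO mice (adjusted p = 0.0433 and 0.0436). Zfand2a, a stress-induced partner of the 19S cap, fell by 0.35 in WT mice (adjusted p = 0.00493), and its value in KO mice was -0.31 (adjusted p = 0.0564, all from limma). Adrm1, the ubiquitin receptor, and Pomp, which matures the core, did not pass the test.

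Of 10 genes of the NRF1 pathway, through which cells raise proteasome synthesis when the protease is inhibited, Nfe2l1 itself was the only call, in the direction in which 4.62% of all genes were called in WT and 3.78% in KO mice. It rose from 7953 ± 242 to 9468 ± 407 normalized counts in WT mice (SD, n = 5 each, log2 fold change 0.25, adjusted p = 0.0112) and from 7890 ± 187 to 9820 ± 586 in KO mice (0.31, adjusted p = 0.00511, both from limma). The 47 members had median log2 fold changes of -0.01 and 0.03 in the same mice, which ran from -0.04 to 0.03 and from -0.04 to 0.07 with single mice left out. Of 6 ubiquitin genes and E1 enzymes, 0 passed the test in either genotype, and 3 had an unadjusted p under 0.05 in WT and 0 in KO mice (limma), against 24.5% and 22.7% of all genes. The difference between genotypes was not past the threshold for any of them in the interaction. Of 14 shuttle factors and parts of the VCP segregase, Ubqln4 was called higher at P70 in both genotypes. Its log2 fold changes were 0.32 in WT and 0.34 in KO mice (adjusted p = 0.0144 and 0.00333 from limma). This was 1 of 14, against 4.62% of all genes called higher in WT and 3.78% in KO mice. Faf1, named after its value was seen, was lower in KO mice (1 of 14, against 4.53%, log2 fold change -0.29, adjusted p = 0.0475 from limma).

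Of 10 genes of MHC class I loading and its interferon control, which work downstream of the inducible subunits or regulate them, Tap2 and Tapbp were higher at P70 (2 of 10, against 4.62% in WT and 3.78% in KO mice). Tap2, a peptide transporter subunit, rose from 143 ± 16 to 238 ± 44 normalized counts in WT (log2 fold change 0.72, adjusted p = 0.00462) and from 154 ± 13 to 247 ± 19 in KO mice (0.68, adjusted p = 0.000991, both from limma, SD, n = 5 each). Tapbp (tapasin) rose by 0.39 and 0.42 on the log2 scale (adjusted p = 0.0304 and 0.0227 from limma). Its groups overlapped, with up to 734 normalized counts at P21 and from 661 at P70 in WT mice. In KO mice these were 714 and 705. The inducible subunits Psmb8, Psmb9 and Psmb10 did not pass the test in the same mice.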

How the data were processed

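RNA was measured in whole brains of 20 mice, 5 in each of 4 groups taken from the sample labels, from poly-A libraries that do not mark strand. For the deposited signal values, the authors estimated abundance with Salmon (1.1.0 in the submitters' processing notes) on GRCm38 and normalized it with DESeq2 (1.26.0 in those notes), to 1 normalized count per gene and mouse, normalized over all mice together. Whole reads could not be recovered from these values, so limma was used in place of a count test and depth is unknown. Symbols, lengths and coordinates came from GENCODE M21 (19447 of 19463 IDs matched), and promoters from RefSeq tables of GRCm38.p6.

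Each comparison was fitted by limma 3.58.1 in R 4.3.3 on log2(value + 1), moderated along the intensity trend. Genes averaging at least 10 were tested, p-values were adjusted over all of them by Benjamini-Hochberg, and the threshold was 0.05. Fold changes on this scale understate those of low genes. SE is the moderated standard error, and intervals are 95%. The fit was run on simulated data with noise independent between genes and mice. Shifts shared by many genes within a mouse were therefore not covered. Members and lists were chosen with earlier results of these data known. The rule for named genes took the catalytic subunits, members past the threshold, those with the smallest p or without overlap between genotypes, class extremes in level and listed genes past the threshold in WT mice. Alternatives were other scalings, filters, pseudocount, weights, a single fit, a replicate block and each mouse left out. Levels per coding length were added after seeing the data. Psmb11, Psme2b and 1 further oligodendrocyte marker are not reported here, and nothing in the labels names a batch. The labels name separate mice as replicates.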

Additional observations from a re-analysis of the deposited data

Results flagged for a closer look

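Within groups of 5 mice, 10 of 84 groups of named members (or of the members' mean deviation) had 1 mouse farther from the others than Dixon's test allows at the 95% level, where chance gives about 1 in 20 groups. Among the other members it was 14 of 116 groups. Of the 10, 5 were P70 KO replicate 5, with 2686 normalized counts for Psmb5, 938 for Psmb10, 5300 for Psmc5, 491 for Psme2 and a mean deviation of the members of 0.21 on the log2 scale. P21 KO replicate 3 stood apart with 3284 normalized counts for Psmb7 and 392 for Psme2. Psmb9 had 51.2 in P21 KO replicate 5 and 46.8 in P70 KO replicate 1, and Psma2 had 1979 in P70 KO replicate 2.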

How the results depend on the processing

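In both KO against WT comparisons and in the interaction, 0 members were called under any alternative. In WT mice the 1 lower member at P70 became 2 with quantile normalization, 2 with a mean of at least 50, 5 (and 1 higher) with array weights, 4 with all 20 mice in a single fit, and 2 (and 1 higher) without the replicate 5 mice of both ages. Leaving out single mice, it was 0 to 6 lower and 0 higher. In KO mice the 1 lower member became 4 (and 1 higher) with array weights and 3 (and 2 higher) without the replicate 5 mice, and 0 to 3 lower and 0 to 1 higher with each mouse left out. Calls over all genes rose in the same fits, to 19.9% with array weights, 11.1% in the single fit and 15% without the replicate 5 mice in WT mice, and to 23.6% with array weights and 19.4% without the replicate 5 mice in KO mice, above the members' shares. The cause was not tested.

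Same-numbered mice are different animals, and the labels name nothing but the number that they share. Their deviations correlated at 0.00511 to 0.256 between genotypes at P21, at 0.0622 to 0.709 at P70, and at -0.12 to 0.15 between ages. With the replicate block, 0 members were lower in WT mice (Psma4, adjusted p = 0.0916 from limma) and 0 in KO mice (Psma3, adjusted p = 0.122 from limma). Not every mouse correlated best with its own number. The block changed no other member's call.

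Some values of uncalled members turned sign. With array weights, the KO against WT value at P21 became 0.017 for Psmb10 and 0.0046 for Psmb6, that at P70 became -0.0013 for Psmb7, and the age value of Psmb10 in WT mice became -0.0096. Quantile normalization gave 0.0081 for Psmb6 in KO against WT mice at P70. Without the replicate 5 mice, Psmb7 became -0.0049 in KO against WT mice at P70, and the age values became -0.053 (Psmb10), -0.013 (Psmb5) and -0.072 (Psmb8) in WT mice and -0.030 (Psmb10) and -0.0083 (Psmb5) in KO mice. Over fits leaving out 1 mouse, the KO against WT values at P21 ran from -0.092 to 0.085 for Psmb10, -0.078 to 0.036 for Psmb5, -0.070 to 0.034 for Psmb6, -0.095 to 0.018 for Psmb7, -0.088 to 0.13 for Psmb8 and -0.19 to 0.36 for Psmb9. At P70 they ran from -0.12 to 0.19 for Psmb10, -0.044 to 0.14 for Psmb5, -0.13 to 0.082 for Psmb6, -0.044 to 0.070 for Psmb7 and -0.19 to 0.22 for Psmb8. The age values ran from -0.061 to 0.16 (Psmb10), -0.048 to 0.099 (Psmb5) and -0.024 to 0.28 (Psmb9) in WT mice and from -0.021 to 0.22 for Psmb10 in KO mice. Depth is unknown for these normalized values, so that how much of the spread is counting error cannot be stated.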
